A study of Mesocricetus auratus with 64 samples.

Results

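Small RNAs of 28 to 30 nt, the size of long piRNAs, were described in golden hamster embryos labelled 54PEA and in GV oocytes, both wild type. A sequence was taken as a member by its length alone, from 28 to 30 nt. Of 144595 distinct sequences in the 2 small RNA tables used, 12620 were members, 3444 in the 54PEA table and 12011 in the GV table. They carried 53123 of 4662344 reads at 54PEA and 1249080 of 4305443 reads at GV.

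The series profiled small and long RNA of Syrian golden hamsters, wild type or lacking Pld6, in oocytes, early embryos and testis, with 64 samples in all. Both libraries described here are wild type and are labelled replicate 2 of their stage, WT-54PEA and WT-GV. The labels call the first an embryo at 54PEA, without spelling out PEA, and the second a GV stage oocyte, which still holds its large nucleus, the germinal vesicle. They give no age of the female and do not name the animal. Per the labels, RNA was released by heat from oocytes or embryos taken singly, and a spike-in was added to it. With 1 library per stage no difference could be tested against replicates, and the intervals below are exact binomial (Clopper-Pearson) intervals at 95% or exact intervals of a ratio of counts. Reads made by PCR without molecular identifiers are not independent molecules, so these intervals cover counting error only.

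piRNAs are small RNAs that guide PIWI proteins, in animal germ cells, to transposon and other transcripts. Most begin with U, the base that fits the 5′ pocket of PIWI proteins. When a PIWI protein slices a target, the new 5′ end lies opposite the tenth base of the guide, so guide and product overlap by 10 bases and the product tends to carry A as the tenth base of its own. The 3′ end is trimmed to the footprint of the PIWI protein by PNLDC1 and then methylated by HENMT1. In golden hamster oocytes PIWIL1 is known to bind long piRNAs and PIWIL3 very short ones, and females without these piRNAs give embryos that stop early.

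Abundant members were the following, printed 5′ to 3′ as in the tables, where T stands for U, with the first and the tenth base in capitals. Names with P mark sequences among the leading 8 at 54PEA and names with G those among the leading 8 at GV, numbered by rank. They are shown because they carried many of the reads.
P2: AcagaagcgActaagcagtgaactcagt
P3: AgcacctggAacttacctgccccacgga
P5: GcatgggtgGttcagtggtagaattctc
P6: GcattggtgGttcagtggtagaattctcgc
P7: TgctcttacAgaatccaggaccatcatc
P8: TtatcagcaCtgacattagaaacaagcct
G2: AccatgctgAgatctggattcatgatatc
G3: TggaagccaTtctgctgagaatcctcaaa
G4: CttgcacttAatgatgtggtctcttgcctc
G5: TacacagagAatcttgatcttaaaaaacca
G6: CtccaacacCtttcagaacatagaacatgt
G7: TatttccatAttgtagttcattctagaga
G8: TacaactaaAcgacacaactggacaggagt

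Neither table names the RNA a sequence comes from, and no genome was used, so members are described by their letters alone. Whether a sequence is a piRNA or a piece of another RNA was not tested.

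Members made up 1.14% of all reads at 54PEA (95% interval 1.13 to 1.15) and 29.01% at GV (28.97 to 29.1). In reads per 1000000 reads of all lengths (RPM), they were 25.5-fold lower at 54PEA (25.2 to 25.7), a log2 ratio of −4.67. As a share of distinct sequences they held 3.78% at 54PEA and 11.4% at GV, a smaller gap than in reads. The other lengths did not share this size of difference: reads of 25 to 27 nt were 3.50-fold lower at 54PEA and those of 23 to 24 nt 1.48-fold lower. Reads of 21 to 22 nt made up 36.4% at 54PEA and 9.86% at GV, and those of 18 to 20 nt 40.4% and 26.3% in the same order. All shares are relative to the reads of a table, and the spike-in was not identified in it, so amounts per oocyte or embryo are not known.

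Within the window the longer members were the scarcer ones at 54PEA. Sequences of 28 nt held 51.8% of member reads at 54PEA and 19.4% at GV. Those of 29 nt held 32.3% at 54PEA and 46.2% at GV, and those of 30 nt 16.0% and 34.4% in that order. In RPM, 28 nt was 9.54-fold lower at 54PEA, 29 nt 36.5-fold lower and 30 nt 54.8-fold lower.

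At the borders of the window, 27 nt made up 1.16% of reads at 54PEA and 3.55% at GV, and 28 nt 0.590% and 5.63%. On the other side, 30 nt made up 0.182% at 54PEA and 9.97% at GV, and 31 nt 0.215% and 1.83%. The GV library therefore had its long peak at 29 nt with 13.4% of reads, against 0.367% at 54PEA. In the same 54PEA library the lengths from 28 to 30 nt formed no peak, since each step up in length held fewer reads.

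A small number of sequences held many of the reads in both libraries. The median member had 4 reads at 54PEA and 11 at GV. The 10 most abundant sequences held 24.8% of member reads at 54PEA and 16.5% at GV, and 87 and 136 sequences, in the same order, reached 50% of them. Single-read sequences were 16.5% of members at 54PEA and 11.7% at GV. Members that differed by 1 base from a sequence with at least 20 times their reads numbered 17 at 54PEA and 48 at GV, with 0.117% and 0.0453% of member reads.

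U was the most frequent first base at both stages and was less frequent at 54PEA. It opened 51.6% of member reads at 54PEA (51.2 to 52.0) and 77.7% at GV (77.6 to 77.8). Over distinct sequences the shares were 62.5% at 54PEA and 72.1% at GV. G opened 22.3% of member reads at 54PEA and 9.89% at GV, A 15.9% and 6.51%, and C 10.2% and 5.92%.

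Loss was deepest for members that begin with U. In RPM these were 38.3-fold lower at 54PEA (37.9 to 38.8), against 14.8-fold for those that begin with C, 11.3-fold for G and 10.4-fold for A. The share of U reads differed little between 28, 29 and 30 nt at GV, at 79.8%, 77.3% and 77.1%. At 54PEA it was 53.8%, 51.6% and 44.5% for the same lengths. The lower share of U was not particular to these lengths, since U opened 56.4% of reads of 25 to 27 nt at 54PEA and 84.2% at GV. At 18 to 20 nt U opened 83.2% of reads at 54PEA and 95.1% at GV, at 21 to 22 nt 75.9% and 71.4%, and at 23 to 24 nt 83.4% and 84.5%.

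The sequences printed above show first bases of several kinds at both stages, since P7 and P8 begin with U at 54PEA and G3, G5, G7 and G8 at GV. Without the 10 leading members of each library, U opened 60.3% of member reads at 54PEA and 85.7% at GV, so the gap did not rest on those 10 alone. It was smaller without weighting by reads. With each sequence counted once U opened 62.5% at 54PEA and 72.1% at GV, and with each 5′ end once 61.4% and 65.8%.

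A stood at the tenth base in 36.9% of member reads at 54PEA (36.5 to 37.3) and in 46.6% at GV (46.5 to 46.7). In the GV library no other position from 2 to 28 had as much A in reads, but position 5 had 45.8%, nearly the same. The median of those other positions was 27.3% at 54PEA and 28.5% at GV. At 54PEA position 13, with 42.4%, held more A than the tenth base.

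Counted over distinct sequences, the tenth base was A in 34.8% at 54PEA and 33.7% at GV, with medians of 28.7% and 28.4% over the other positions. The excess in GV reads therefore came with abundant sequences, and the distinct GV sequences had slightly more A at position 5 (34.9%). In the distinct 54PEA sequences no other position from 2 to 28 reached the tenth base, and the next was position 13 with 33.3%. Among members that begin with U the tenth base was A in 43.3% of reads at 54PEA and 48.9% at GV. Among the rest it was A in 30.1% of reads at 54PEA and 38.7% at GV. Over distinct sequences this difference by first base was not seen at GV, where A stood in 33.4% with U first and 34.4% without. At 54PEA the distinct sequences gave 37.3% with U first and 30.6% without.

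Complementary 5′ ends with an overlap of 10 bases were found for 32 of 3444 members at 54PEA and 312 of 12011 at GV. They carried 0.902% of member reads at 54PEA and 4.56% at GV. The share and the gap between the stages depended on the partners allowed, since partners of 18 to 32 nt gave 15.5% at 54PEA and 18.5% at GV, and 1 mismatch gave 12.7% and 32.7%. A match of 10 bases can arise between unrelated sequences, so the same match was counted at overlaps of 11 to 28 bases along the partner. At 54PEA these gave 7 to 25 members and 0.109% to 2.47% of reads, so at 10 bases the members lay above that range and their reads inside it. Matches of a member with itself were not left out, and their number was not counted. At GV they gave 108 to 179 members and 0.611% to 2.32% of reads, all below the values at 10 bases.

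Frequent U at the first and A at the tenth base by itself favours a match at 10 bases. The match was therefore also counted with the same letters but the middle 8 of the 10 in reverse order, which keeps both ends. It was met by 19 members at 54PEA and 174 at GV, with 0.437% and 2.21% of reads. At both stages more members and more reads matched in the true order than with the middle reversed, but at 54PEA the counts were small.

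Overlaps of 5′ ends, complementary over the whole overlap, were rarer the more bases they held. At 8 bases 208 members matched at 54PEA and 1884 at GV. At 9 bases 72 and 713 did, and at 10 bases 32 and 312. Matches of more bases arise less often between unrelated sequences, so this fall does not single out 10 bases. An overlap of exactly 11 bases was found for 5 members at 54PEA and 58 at GV. One of exactly 13 bases was found for 0 and 4. No member of either library had one of 14 to 20 bases, and longer ones were not counted. Each overlap length is a separate alignment of the ends, so these counts do not show how far a shorter match extends. For a single sequence, a read count of 0 allows up to 3 reads, or 6.43e-05% of all reads at 54PEA and 6.97e-05% at GV. This floor sets no bound on the number of members with a partner.

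Paired ends with many reads at GV are printed below, with the 10 overlapping bases in capitals, as examples of the overlap. In both pairs each partner begins with U and has A at the tenth base, which is not so for every pair.
Pair A, first member: TGACCAAGAAcctgaattcccccaacatt
Pair A, second member: TTCTTGGTCAcctgagaaccttcaacact
Pair B, first member: TACCCTTGTAgagtccatgatggccaaa
Pair B, second member: TACAAGGGTAcacccactggtctccaagg

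Pair A had 44 and 18 reads at 54PEA and 2031 and 1713 at GV. Pair B had 72 and 0 reads at 54PEA and 618 and 614 at GV. All 4 of these sequences had fewer reads at 54PEA, but they were chosen by their reads at GV. Of the 1730 members with at least 100 reads over both libraries, 1703 were lower at 54PEA in RPM, so this is nothing particular to paired members. In all, 12 pairs of 5′ ends overlapped at 54PEA and 97 at GV. Paired members had A at the tenth base in 89.4% of their reads at 54PEA and 84.2% at GV, against 36.4% and 44.8% of the reads of unpaired members. The pairing itself links U at the first base of one partner to A at the tenth base of the other, so this share is no separate measurement.

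Most member reads belonged to 5′ ends that occurred with more than 1 length. Members that share their first 20 bases were joined into 2849 families at 54PEA and 7524 at GV. Families with 2 or 3 lengths held 56.4% of member reads at 54PEA (56.0 to 56.8) and 88.2% at GV (88.1 to 88.3), though they were only 16.5% and 43.1% of the families. All 3 lengths were present in 87 families at 54PEA and 1065 at GV, with 32.4% and 62.2% of reads. Few reads lower the chance of seeing a second length, and among families with at least 10 reads the share with more than 1 length was 42.5% of 765 at 54PEA and 61.2% of 4687 at GV.

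The variants were mostly nested, that is, the shorter sequences were the start of the longest. This held for 442 of 470 families with more than 1 length at 54PEA and for 3147 of 3240 at GV. Over all families with at least 10 reads, the leading length held a median of 100% of family reads at 54PEA and 95.1% at GV. This includes families with 1 length. At 54PEA only 42.5% had more than 1, so that median had to be 100%. The leading length over all families with at least 10 reads was 28 nt in 59.0%, 29 nt in 29.3% and 30 nt in 11.8% at 54PEA. At GV it was 28 nt in 31.4%, 29 nt in 39.7% and 30 nt in 28.9%. The families counted at the 2 stages are not the same set. Of the 646 families with at least 10 reads in both libraries, 503 had the same leading length at both stages, 136 a shorter one at 54PEA and 7 a longer one.

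Examples of 3′ variants follow, with the bases past the first 28 in capitals, because they show how a fixed 5′ end goes with a ragged 3′ end. They are the family of P5 and the family of G5. Whether either family is made of piRNAs or of pieces of another RNA was not tested, so their ends are not read as piRNA trimming.
P5 family, 28 nt: gcatgggtggttcagtggtagaattctc
P5 family, 29 nt: gcatgggtggttcagtggtagaattctcG
P5 family, 30 nt: gcatgggtggttcagtggtagaattctcGC
G5 family, 28 nt: tacacagagaatcttgatcttaaaaaac
G5 family, 29 nt: tacacagagaatcttgatcttaaaaaacC
G5 family, 30 nt: tacacagagaatcttgatcttaaaaaacCA

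In the P5 family the 28, 29 and 30 nt forms had 1106, 60 and 440 reads at 54PEA, against 327, 129 and 221 reads at GV. The 28 nt form led in both, and the 29 nt form was the lowest. In the G5 family the 28, 29 and 30 nt forms had 402, 563 and 154 reads at 54PEA, against 1582, 6967 and 14874 reads at GV. The leading form of the G5 family was thus 29 nt at 54PEA and 30 nt at GV.

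More than 1 kind of base at the same added position was rare. Of 318 sequences of 28 nt that also occurred with 1 base more at 54PEA, 2 did so with more than 1 kind of base, and of 2515 at GV 8 did. By distinct sequences the added base was T in 34.7%, C in 29.4%, A in 23.4% and G in 12.5% at 54PEA. At GV it was T in 33.9%, C in 25.7%, A in 23.7% and G in 16.7%. By distinct sequences the order of the 4 bases was thus the same in both libraries. By reads C led from 28 to 29 nt, with 59.1% at 54PEA and 40.3% at GV. From 29 to 30 nt C led by reads at 54PEA, with 57.3% against 20.2% for T, while T led at GV, with 42.3% against 28.8% for C. G was the least frequent added base in each of these counts. Without a genome, an added base that is in the source transcript cannot be told from one that is not.

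G was the least frequent last base at each length in both libraries. At 30 nt it was T in 27.7%, C in 49.2%, A in 16.0% and G in 7.21% of reads at 54PEA. At GV the shares were 41.2% for T, 31.6% for C, 22.5% for A and 4.65% for G.

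Ends moved by 1 base on the 5′ side were common and mostly held few reads. Of 189 GV families with at least 1000 reads, 165 had a family that starts 1 base further in and 51 one that starts 1 base further out. The inward one had a median of 0.779% of the reads of the family itself, but in 10 of the 189 a moved end held more reads than the family. With a minimum of 100 reads this was so for 169 of 1541 GV families and 3 of 70 at 54PEA. At 54PEA 7 families had at least 1000 reads, of which 4 had an inward neighbour and 5 an outward one.

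The 5′ ends of GV members remained frequent at 54PEA in shorter RNAs. GV members had 7489 different 5′ ends, defined by the first 18 bases, and 6207 of these were found at 54PEA at some length. At 28 to 30 nt 2395 were found, or 31.98%, and at 18 to 27 nt 5864 were, or 78.3%. In the GV library itself 6175 of these ends, or 82.5%, were found at 18 to 27 nt, so the shorter RNAs were already present beside the long ones. Reads of any length with these ends made up 50.7% of the 54PEA library and 70.2% of the GV library.

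The lengths of the reads with these ends differed between the stages. Of the reads with these ends, 2.16% were 28 to 30 nt long at 54PEA and 41.3% at GV. Those of 18 to 20 nt held 40.8% at 54PEA and 21.4% at GV, those of 21 to 22 nt 37.2% and 5.38%, and those of 23 to 24 nt 14.8% and 17.2%. Longer and shorter RNAs with the same first bases may come from 1 place or from several, which was not tested.

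Over all 7489 ends, reads of 18 to 24 nt made up 47.0% of the library at 54PEA and 30.8% at GV, 1.52-fold higher at 54PEA. A narrower set of 1086 5′ ends was chosen by GV reads, with at least 100 reads at 28 to 30 nt and most of their GV reads at that length. The choice fixes their GV lengths and raises the ratios below, which are a description and no support for the values over all ends. At 54PEA their reads were 7.24% at 28 to 30 nt and 88.2% at 18 to 24 nt. At GV the shares were 81.2% at 28 to 30 nt and 12.5% at 18 to 24 nt. In RPM, the form of 18 to 24 nt was 2.53-fold higher at 54PEA (2.52 to 2.55), and that of 28 to 30 nt 31.1-fold lower. Of the 791 ends with at least 20 reads at 54PEA, 669 had most of their reads at 18 to 24 nt and 57 at 28 to 30 nt. No read of any length was found at 54PEA for 48 of the 1086 ends.

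G3 and G7 are examples of single ends with fewer long and more short reads at 54PEA. G3 itself had 378 reads at 54PEA and 19471 at GV, while reads of 18 to 24 nt with its 5′ end numbered 8090 at 54PEA and 540 at GV. G7 had 133 reads at 54PEA and 14209 at GV, and the short reads of its 5′ end numbered 11482 and 1151 in that order. Other ends had few reads left in any form. G2 had 68 reads at 54PEA and 21629 at GV, with 185 short reads at 54PEA and 163 at GV.

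Single members were compared where they had at least 20 reads over both libraries, which 4929 of the 12620 members did. Of these 4520, or 91.7%, were at least 4-fold lower at 54PEA in RPM, and 26, or 0.527%, at least 4-fold higher. Over sequences of every length, 32.9% of 37843 were at least 4-fold lower and 28.7% at least 4-fold higher. The members' share of lower sequences thus lay far above that of all lengths, and the share of higher ones far below it. The minimum counts reads of both libraries, so a member could pass on its GV reads alone, and the members below it were not compared.

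Of these 4929 members, 2851 (57.8%) had no read at 54PEA and 9 none at GV, so the median ratio of 54PEA over GV was 0. Over all lengths 15.4% of the 37843 sequences had no read at 54PEA and 3182 had none at GV, and the median ratio was 0.756. At 28 nt 81.5% were at least 4-fold lower, at 29 nt 95.6% and at 30 nt 97.4%. By first base the share was 94.97% of 4116 members that begin with U, against 77.0% for G, 75.1% for C and 73.7% for A.

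The GV members printed above were lower at 54PEA by different amounts. G2 stood at 14.6 RPM at 54PEA and 5024 at GV, 344-fold lower (272 to 444). G5 stood at 33.0 and 3455 RPM, 105-fold lower. G3 was 55.8-fold lower, G4 45.6-fold, G6 179-fold, G7 116-fold and G8 77.3-fold.

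The 54PEA members printed above ranged from 11.8-fold lower to 3.12-fold higher at 54PEA. P2 stood at 369 RPM at 54PEA and 407 at GV, and P6 at 184 and 236. P3 stood at 271 RPM at 54PEA and 176 at GV, 1.54-fold higher (1.41 to 1.69). P5 had 237 RPM at 54PEA and 76.0 at GV, 3.12-fold higher (2.76 to 3.54). P7 was 2.72-fold lower and P8 11.8-fold lower. The P sequences were chosen by their reads at 54PEA and the G sequences by theirs at GV, so the 2 sets are not compared.

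Among the 1730 members with at least 100 reads over both libraries, 1703 were lower at 54PEA in RPM and 27 higher, while over all lengths 49.2% of 11077 such sequences were lower. No read at 54PEA was found for 661 of the 1730 and none at GV for 1, so many passed the minimum on GV reads alone. Large differences in each direction are printed with the first and the tenth base in capitals, to show how far single members differed.
F1: AtgctaataCgtactgagaaccatttatta
F2: AggaatgaaAacaatggcgctgacatgt
F3: TgaatctagTccttctgtgaatctgaggc
R1: GgagaccggGgttcgattccccgacgggga
R2: CtagagaatAtccagaagaaacaagagt
R3: CtagtttccAgactgaggtcataacatc

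F1 had 5 reads at 54PEA and 3973 at GV, 860-fold lower (368 to 2652). F2 had 1 read at 54PEA and 2253 at GV, a ratio of 0.00041 (1.04e-05 to 0.00229). F3 had no read at 54PEA and 2170 at GV, at least 783-fold lower against a floor of 3 reads. Its 5′ end was still found at 54PEA, where 89 reads of 18 to 24 nt carried it, against 30 at GV.

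R1 had 327 reads at 54PEA and 2 at GV, a ratio of 151 (41.5 to 1252). R2 had 112 reads at 54PEA and none at GV, at least 34.5-fold higher against a floor of 3 reads. R2 also had 2951 reads of 18 to 24 nt with its 5′ end at 54PEA, against 9 at GV. R3 had 206 and 19 reads, 10.0-fold higher (6.25 to 16.97). None of R1 to R3 begins with U.

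What was left at 54PEA was mostly also seen at GV. Of the 54PEA members 82.3% were present at GV, and they carried 94.9% of the 54PEA member reads. Over all lengths 56.9% of 54PEA sequences were present at GV, with 92.2% of the reads, so by reads the members were close to the whole library. In turn 23.6% of GV members were seen at 54PEA, with 77.6% of the GV member reads. Over all lengths, with 91227 sequences at 54PEA, 105302 at GV and 144595 in either, the share of GV sequences seen at 54PEA was higher. No sequence found in the 54PEA table alone had more than 112 reads, while one found in the GV table alone had 2170. Across the 2069 shared members with at least 20 reads over both libraries, Spearman's rho of abundance between the stages was 0.158. These are sequences of 1 library each and are not independent. Members low in both libraries were left out, which by itself can lower rho, so the value does not tell how alike the orders were.

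Long RNA libraries of the same stages give the setting for these sequences. They are other libraries than the small RNA ones, 2 per stage, and are given as counts per 1000000 gene counts (CPM) with no test run on them. Piwil1, which encodes a PIWI protein, had no count in either WT-54PEA library and 137 and 131 CPM in the WT-GV libraries. Piwil3, another PIWI gene of the oocyte, had 0.165 and 0 CPM at 54PEA and 42.3 and 28.3 CPM at GV. Piwil2 ran the other way, with 79.5 and 93.2 CPM at 54PEA and 5.82 and 14.0 CPM at GV.

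Genes for making the 3′ end differed among themselves. The trimmer gene Pnldc1 had 1252 and 923 CPM at 54PEA and 245 and 211 CPM at GV. Henmt1, whose product methylates the 3′ end, had no count at 54PEA and 321.2 and 286 CPM at GV. Pld6, linked to the making of piRNA 5′ ends, had no count at 54PEA and 36.2 and 31.9 CPM at GV. The germline helicase gene Ddx4 had 4.94 and 0.267 CPM at 54PEA and 731 and 679 CPM at GV, and Gtsf1, whose product aids PIWI slicing, 16.5 and 11.5 CPM at 54PEA and 565 and 590.3 CPM at GV. Of 12 piRNA pathway genes looked up, 10 had both 54PEA libraries below both GV libraries, and Pnldc1 and Piwil2 had both above. Of 20415 genes with a count in any of the 4 libraries, 44.3% had both 54PEA libraries below both GV libraries and 26.4% both above, so nothing particular to the pathway is read from its count. The part of these genes in the loss of long small RNAs was not tested.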

How the data were processed

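The 2 small RNA tables hold, as deposited, the read count of each distinct sequence, from 17 to 45 nt and down to 1 read. Per the labels' protocols, adapters were ligated, the product amplified, and fragments of 130 to 160 bp cut from a gel, which bounds the insert length. Per the submitters' processing notes, Trim Galore, TopHat, STAR 2.7.1a and featureCounts were used, and their role for small RNA is not given in the sources used here. Small RNA of other samples was not analysed here. The 4 long RNA tables used hold counts per gene as deposited, with 6078063 and 7482076 gene counts at 54PEA and 9792193 and 9094764 at GV, ERCC rows left out. The members, lists and rules were chosen with earlier results of these data known.

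Sequences were compared as letters with Python 3.11.15 and SciPy 1.17.1, and nothing was mapped. Reads per 1000000 (RPM) refer to all reads of a table (4662344 at 54PEA, 4305443 at GV). A member has a partner where the reverse complement of its first 10 bases opens a member of the same library. The sequence itself was not left out, so first 10 bases that are their own reverse complement count as a match. Named sequences are the 8 with most reads per library, the 5 largest ratios each way with at least 100 reads over both, the 3 leading families and the 5 leading overlapping pairs, of which the text prints a part, and some are not reported here. The steps were checked on made-up sequences with planted pairs and variants. Alternatives changed weighting, read minimum, scaling, size window and match.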

Additional observations from a re-analysis of the deposited data

How the results depend on the processing

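Of 51 alternative values, 5 stayed within the counting interval or within 1.5 times the count and 46 moved past it. The log2 ratio kept its direction in all alternatives run. The count of lower members has no direction to turn. It moved past 1.5 times only with at least 50 reads over both libraries, to 2700 against 4520 as reported. The order of the stages turned for the tenth base, and the partner share moved by more than the gap between the stages with wider partners or 1 mismatch. In every pair below the first value is for 54PEA and the second for GV. The share of reads at 28 to 30 nt was 1.21% and 30.2% of reads of 18 to 30 nt, 1.13% and 29.1% with at least 2 reads, 0.979% and 30.1% with at least 10 reads, 3.78% and 11.4% with each sequence counted once, 0.859% and 25.5% without the 10 most abundant members, and 2.52% and 34.4% for 27 to 31 nt. First-base U was 62.5% and 72.1% with each sequence once, 61.4% and 65.8% with each 5′ end once, 49.2% and 77.9% with at least 10 reads, and 60.3% and 85.7% without the 10 most abundant. A at the tenth base was 34.8% and 33.7% with each sequence once and 34.2% and 33.0% with each 5′ end once, so that 54PEA was then above GV, where by reads it was 36.9% and 46.6%. It was 37.4% and 46.9% with at least 10 reads and 38.2% and 46.5% without the 10 most abundant.

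The share of reads with a 10-base partner was 15.5% and 18.5% with partners of 18 to 32 nt, where the middle-reversed match gave 6.38% and 7.44% and overlaps of 11 to 18 bases gave 4.15% to 11.1% at 54PEA and 4.79% to 10.4% at GV. It was 0.739% and 4.26% with at least 10 reads, 2.37% at GV with each 5′ end once, and 12.7% and 32.7% with 1 mismatch allowed. Without the 10 most abundant it was 1.20% and 5.45%, an alternative chosen after seeing the data. Families with more than 1 length held 55.8% of reads at 54PEA by their first 24 bases, 79.1% and 95.1% for 25 to 32 nt, and 47.3% and 78.0% with at least 10 reads. The log2 ratio of member reads, 54PEA over GV, was −6.55 relative to reads of 21 to 22 nt, −5.15 relative to reads outside 28 to 30 nt and −4.73 with at least 10 reads. With at least 50 reads over both libraries, 2700 of 2879 members (93.8%) were at least 4-fold lower at 54PEA. The limits that no setting touches are 1 library per stage, an unknown amount of RNA per cell, and sequences without a place in a genome.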
